A study of Homo sapiens with 9 samples.

Results

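The 4 stretches of the human genome that stood high in summed reads in HCT116 are the distal parts of 8q, 16q, 17q and 10q: chr8:67000001-146000000, chr16:79300001-90000000, chr17:43000001-79000000 and chr10:100000001-131000000 (hg19). They were taken as all 50 kb windows between these positions, 3134 of the 60739 windows of the 22 autosomes and chromosome X. The 8q stretch held 1580 windows, the 16q stretch 214, the 17q stretch 720 and the 10q stretch 620. A filter on low reads kept 1571, 213, 718 and 616 of these, or 3118 of the 56697 windows kept in all. The stretches were chosen by reads summed over libraries, so their read levels are given below as a description with no test. The way those reads were divided among libraries did not enter the choice.

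HCT116 is a line from a colorectal carcinoma. RPE1 came from the retinal pigment epithelium and is kept growing by an added telomerase gene. Both lines were grown untreated in the same medium, and dividing cells were given a pulse of EdU, a thymidine analogue that marks newly made DNA. Flow sorting split S phase into 3 fractions, and the marked DNA of each was sequenced. There are 9 libraries, 3 in each of 2 RPE1 sets and 3 in a single HCT116 set. Nothing in the labels says that the RPE1 sets were separate cultures, so their spread may be technical. The labels number the mid and late HCT116 libraries as replicate 2 and leave the early one without a number. Each table has 3 count columns without names, so libraries carry the letters A, B and C for their place in the table and are not tied to a fraction.

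Mammalian chromosomes are copied in large blocks that start at characteristic times in S phase. Gene-rich, open chromatin is mostly copied early and compact, gene-poor chromatin late, and many blocks change their time between cell types. Cancer lines also carry whole or partial chromosome gains, and HCT116 is known for a duplication within 10q and for extra pieces of 8q and 17q joined to other chromosomes. RPE1 is known for an extra copy of distal 10q. An extra copy adds reads to each fraction of S phase in proportion to when that copy is made, so summed reads are used as a measure of copy number and the division of reads among libraries as one of timing.

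The libraries held from 6170299 to 22930078 reads. A kept window had a median of 445 reads in HCT116, 599 in RPE1 set 1 and 878 in RPE1 set 2, and within the 4 stretches the HCT116 medians were 622 to 649 reads. Libraries were scaled to one total. The level of a window is its summed scaled reads over the median of autosomal windows of the same set with a like division of reads, so a level of 1 is the usual autosomal depth. The share of a library is its percent of the scaled reads of a set, and C minus A is the difference of these shares in percentage points. Library C had a floor of about 3 to 5% in RPE1 set 1 where library A led, against about 15 to 20% in RPE1 set 2 and HCT116. The gap between the RPE1 sets was therefore widest in windows led by A, and each set is given separately below.

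On 8q, 16q and 17q, HCT116 stood at about 1.4 times the usual depth while RPE1 stood near 1. On 8q the level was 1.41 in HCT116, against 0.976 in both RPE1 sets. On 16q it was 1.43 in HCT116, against 0.994 and 1.01. On 17q it was 1.46, against 1.04 in both RPE1 sets. The sets did not overlap in any 1 Mb block of these stretches: HCT116 lay above both RPE1 sets in 79 of 79 blocks of 8q, 11 of 11 of 16q and 36 of 36 of 17q. These reads had chosen the stretches, so nothing is read from these counts. No share of 1 Mb blocks elsewhere was taken, but 33.1% of all 50 kb windows kept were so placed. As a ratio to RPE1, HCT116 had 1.44 ± 0.00016 (SD over the 2 RPE1 sets) on 8q, 1.43 ± 0.012 on 16q and 1.40 ± 0.0015 on 17q. Such an SD holds no spread of HCT116 and is not the precision of the ratio. Without matching by division of reads the ratio was 1.47 on 8q, 1.41 on 16q and 1.34 on 17q.

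The 10q stretch did not follow its name as a gain of HCT116 alone. Its level was 1.40 in HCT116, 1.43 in RPE1 set 1 and 1.42 in RPE1 set 2, so both lines stood above the usual depth there and the ratio of HCT116 to RPE1 was 0.982 ± 0.0044 (SD over the 2 RPE1 sets). HCT116 lay above both RPE1 sets in 8 of its 31 blocks of 1 Mb. Elsewhere on chromosome 10 the median level was 1.00 in HCT116 and 1.14 in both RPE1 sets. Single windows gave the same picture of overlap. HCT116 was above both RPE1 sets in 1562 of 1571 windows of 8q, 213 of 213 of 16q, 706 of 718 of 17q and 162 of 616 of 10q, where 33.1% of all windows kept were so placed. The summed reads had chosen the stretches, and nothing is read from these counts.

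**Figure D1:**
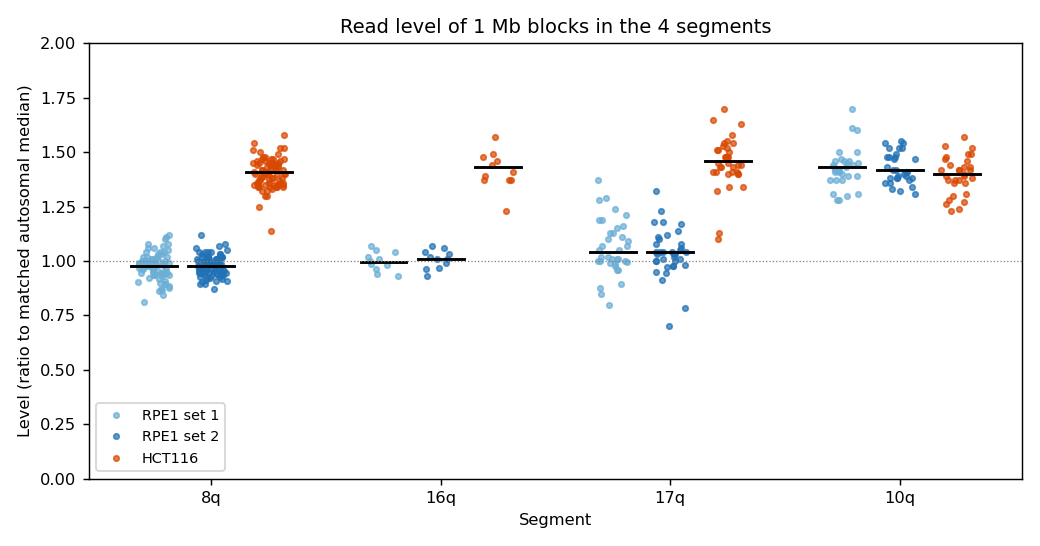
Level (ratio to the matched autosomal median, linear axis from 0) of each 1 Mb block in the 8q, 16q, 17q and 10q stretches, with RPE1 set 1 in light blue, RPE1 set 2 in dark blue and HCT116 in orange; points are spread sideways only to be seen, and the black bars are the levels over all windows of a stretch. HCT116 is at 1.41, 1.43 and 1.46 on 8q, 16q and 17q, above RPE1 near 1, while all 3 sets lie near 1.4 on 10q.

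Within a stretch the level was not flat in any set. The lowest 1 Mb block of 8q in HCT116, at 1.14, began at 128000001, and the highest, at 1.58, at 70000001. RPE1 had 0.904 and 0.978 in the low block. On 17q the lowest HCT116 blocks were the first ones, with 1.10 from 43000001 and 1.13 from 44000001. RPE1 was low in the same blocks, with 0.850 and 0.783 in the first and 0.796 and 0.699 in the next. The 17q dip was thus present in all sets, and HCT116 stayed above RPE1 within it. On 16q HCT116 ran from 1.23 in the block from 88000001 to 1.57 in the block from 79000001, and on 10q from 1.23 to 1.57.

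The ratio of HCT116 to RPE1 was also taken by where a window lies on the leading axis of RPE1, the direction that runs from windows led by A to windows led by C. On 8q the ratio was 1.49 and 1.47 (against RPE1 set 1 and set 2) in windows at the A end, 1.45 and 1.45 in the middle and 1.43 and 1.43 at the C end. On 16q it was 1.39 and 1.36 in 132 windows at the A end and 1.51 and 1.48 in 14 windows at the C end. On 17q it ran from 1.37 to 1.45 over 3 groups of windows along the axis, and on 10q from 0.946 to 1.03. The ratio on 8q, 16q and 17q was raised at both ends of the axis and between them. Summed reads had chosen these stretches, so this is a description only.

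The edges of the stretches were then placed in bins of 10 kb, as the split that best separates the HCT116 part of all reads within 3 Mb. An edge was placed at the left end of each stretch and at the right end of the 10q stretch, 5 in all; the right ends of the 8q, 16q and 17q stretches were not searched. The 8q edge fell at 67390001, the 16q edge at 78930001 and the 17q edge at 43440001. The 10q edges fell at 100020001 and 131380001. A second search used the matched levels, which do not depend on unequal library sizes, and was chosen after the data were seen. It gave 67390001, 78880001, 43400001, 100020001 and 131380001, within 50 kb of the first in each case.

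How sharply each edge was fixed differed. The right 10q edge fell at 131380001 against either RPE1 set and in each of libraries A, B and C alone. With the 17q edge, RPE1 set 1 alone gave 43440001 and RPE1 set 2 alone 43380001, but library B alone gave 45040001. The 8q edge moved from 66270001 against RPE1 set 1 to 68020001 against RPE1 set 2, and library C alone gave 68700001. The 16q edge moved from 79390001 to 78850001 between the RPE1 sets, and libraries A and B alone gave 81940001 and 80460001. The left 10q edge moved from 99700001 to 100020001, with 100320001 in library A and 98380001 in library C alone. On matched levels the positions against the separate RPE1 sets lay within 80 kb of each other at every edge: at 16q they were 78930001 and 78850001, and at 8q both were 67390001.

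Some windows of the stretches therefore lay beyond the edge found, and some windows next to them lay inside it. On 8q, 7 windows from 67000001 to 67390000 were beyond the edge, with a level of 0.898 in HCT116 against 0.839 and 0.88 in RPE1. On 17q, 8 windows from 43000001 to 43440000 were beyond it, with 1.15 in HCT116 against 1.28 and 1.08. In the other direction, 7 windows of 16q from 78930001 to 79300000 lay inside the edge but outside the stretch as chosen, with 1.51 in HCT116 against 1.01 and 1.03. Another 7 windows of 10q, from 131000001 to 131380000, did so with 1.26 in HCT116 against 1.43 and 1.45. The left 10q edge left no whole window on the wrong side.

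**Figure D2:**
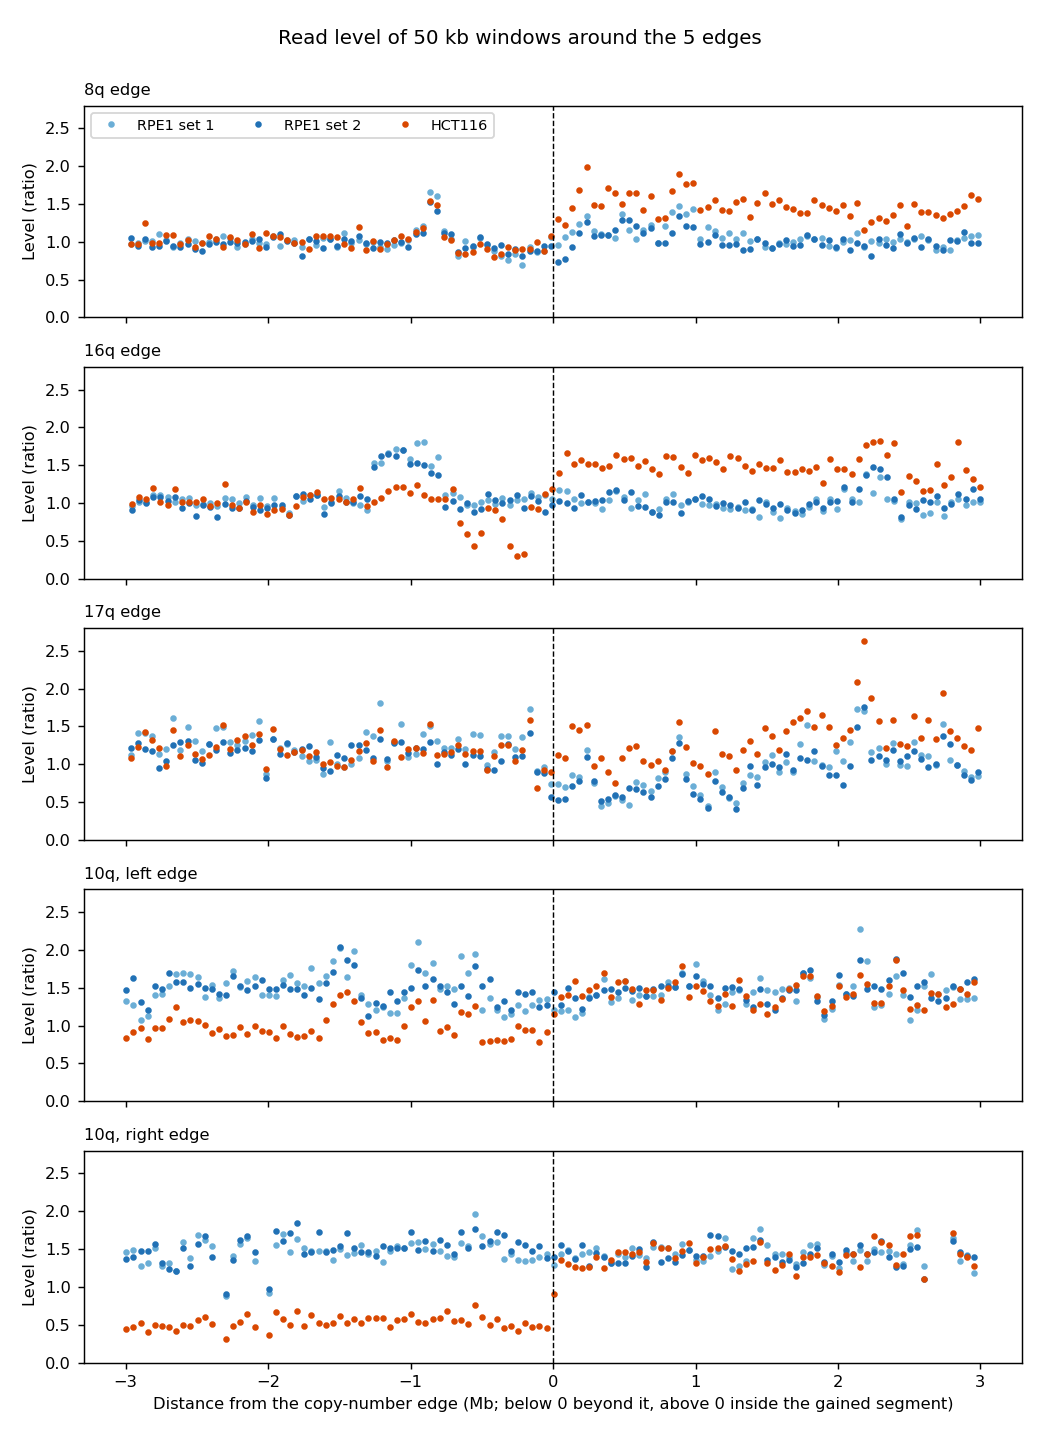
Level (ratio, linear axis from 0) of each 50 kb window against its distance from the edge in Mb, in 1 panel for each of the 5 edges, with RPE1 set 1 in light blue, RPE1 set 2 in dark blue and HCT116 in orange; the dashed line is the edge, and values above 0 are inside the gained stretch. By medians over flanks of up to 5 Mb, wider than the panels, HCT116 is higher inside each edge. The step in these medians is largest at the right 10q edge, from 0.52 beyond it to 1.38 inside. The RPE1 medians there lie between 1.41 and 1.48 on both sides, and single windows vary more. Over 1 Mb at the 17q edge HCT116 is at 1.09 inside and 1.15 beyond.

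At the 8q edge the HCT116 level rose within a domain led by library A in both lines. Over the 5 Mb inside the edge HCT116 had a level of 1.48 and over the 5 Mb beyond it 0.979, a step of 1.51. The RPE1 sets had steps of 1.07 and 1.04 over the same windows. In the 500 kb just inside, library A held 55.2% of reads in HCT116, against 57.1% and 59.7% in RPE1. In the 500 kb just beyond, it held 42.9% in HCT116 and 54.1% and 53.4% in RPE1. HCT116 thus lay below both RPE1 sets in library A on both sides, and by more beyond the edge than inside it. From 1 to 2 Mb on either side, the domain gave way to windows led by C in every set, with 52.8% inside and 56.1% beyond in HCT116.

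The 16q edge lay in a domain led by library C. The step in level was 1.41 in HCT116, from 1.05 beyond to 1.48 inside, and 0.934 and 0.935 in RPE1. Library C held 61.0% of HCT116 reads in the 500 kb inside and 61.9% in the 500 kb beyond, against 67.7% and 61.3% inside and 67.4% and 61.9% beyond in RPE1. The division of reads did not step at the edge itself in any set. Farther in, the C-led domain was longer in HCT116. From 500 to 1000 kb inside, C held 66.4% in HCT116 against 48.6% and 42.1%, and from 1 to 2 Mb inside 45.0% against 22.6% and 26.2%. From 500 to 1000 kb beyond, the order was turned, with 49.5% in HCT116 against 64.5% and 59.6%.

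The side of the 16q edge left at the usual depth held short runs with few HCT116 reads. This part of 16q is known for the fragile site FRA16D, which lies in the tumour suppressor gene WWOX and often breaks or is lost in tumours; no gene position of hg19 was used here, so the runs are given by coordinate alone. From 78680001 to 78720000 HCT116 had 20 reads where the RPE1 sets had 634 and 611, or 0.046 and 0.0583 times the RPE1 reads after scaling. From 78590001 to 78610000 it had 16 reads against 309 and 295, or 0.0793 and 0.102 times. Between these runs, from 78610001 to 78680000, it had 0.472 and 0.56 times. The runs ended 210 and 320 kb beyond the edge. The 210 kb from there to the edge stood at 0.811 and 1.11 times, and 600 kb that end 1330 kb beyond the edge stood at 1.15 and 1.02 times. The 300 kb just before the runs, from 78290001 to 78590000, were lower, at 0.692 and 0.876 times, and there the HCT116 level of single windows fell to 0.439. Farther out, RPE1 itself was raised: the window from 77950001 had levels of 1.79 and 1.53 in RPE1 and 1.24 in HCT116. HCT116 depth relative to RPE1 was thus uneven beyond the edge, with the low runs as its smallest values in these stretches. The runs were picked out after their values were seen.

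The 17q edge lay in a domain led by library A on both sides in every set. The step in level was 1.29 in HCT116, from 1.12 to 1.44, against 0.846 and 0.898 in RPE1. Over the first 1 Mb inside, HCT116 stood at 1.09 and beyond at 1.15, and its step of 0.941 was a fall, where RPE1 fell from 1.26 to 0.743 and from 1.11 to 0.677. The gain therefore showed there as a smaller fall than in RPE1. Library A held 59.7% of reads in the 500 kb inside in HCT116, against 61.7% and 55.0% in RPE1, and 56.5% in the 500 kb beyond, against 69.5% and 67.4%. HCT116 lay between the RPE1 sets inside and below both beyond.

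The left 10q edge was a step in HCT116 within a stretch that RPE1 carried at a raised level throughout. HCT116 rose from 0.962 to 1.47, a step of 1.53, while RPE1 went from 1.41 to 1.48 in set 1 and from 1.42 to 1.5 in set 2. In the 500 kb just inside, library B led in HCT116, with A, B and C at 27.5%, 46.2% and 26.3%. In RPE1, library A led there with 46.3% and 44.9%. Just beyond, A led in every set, with 55.2% in HCT116 and 49.0% and 48.2% in RPE1. From 500 to 1000 kb inside, library C held 32.6% in HCT116 and 55.3% and 48.2% in RPE1, so the C-led peak of RPE1 there was lower in HCT116.

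At the right 10q edge the level went from above the usual depth to well below it in HCT116 alone. HCT116 had 1.38 inside and 0.52 beyond, a step of 2.66, over 97 windows inside and the 80 kept windows left before the chromosome end. RPE1 had 1.41 inside in both sets and 1.47 and 1.48 beyond. The change fell within 1 window: the windows 105 and 55 kb inside had 1.30 and 1.36 in HCT116, the window that holds the edge had 0.909, and the windows 45 and 95 kb beyond had 0.463 and 0.48.

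Both lines were led by library C inside the right 10q edge, and they lay farther apart beyond it. In the 500 kb inside, C held 63.7% in HCT116 and 71.9% and 66.6% in RPE1. In the 500 kb beyond, it held 32.8% in HCT116 and 64.5% and 58.2% in RPE1. The share of C fell over the first windows beyond, at 49.7%, 49.9%, 47.1%, 36.8% and 34.6% in HCT116, where the same windows had 76.1%, 71.6%, 68.2%, 68.5% and 73.1% in RPE1 set 1 and 67.9%, 64.5%, 64.2%, 61.5% and 63.6% in RPE1 set 2. C minus A over these 500 kb was 10.1 points in HCT116 and 46.4 ± 2.4 (SD, n = 2) in RPE1, and the low depth left 213, 221, 222, 240 and 194 HCT116 reads in these windows.

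**Figure D3:**
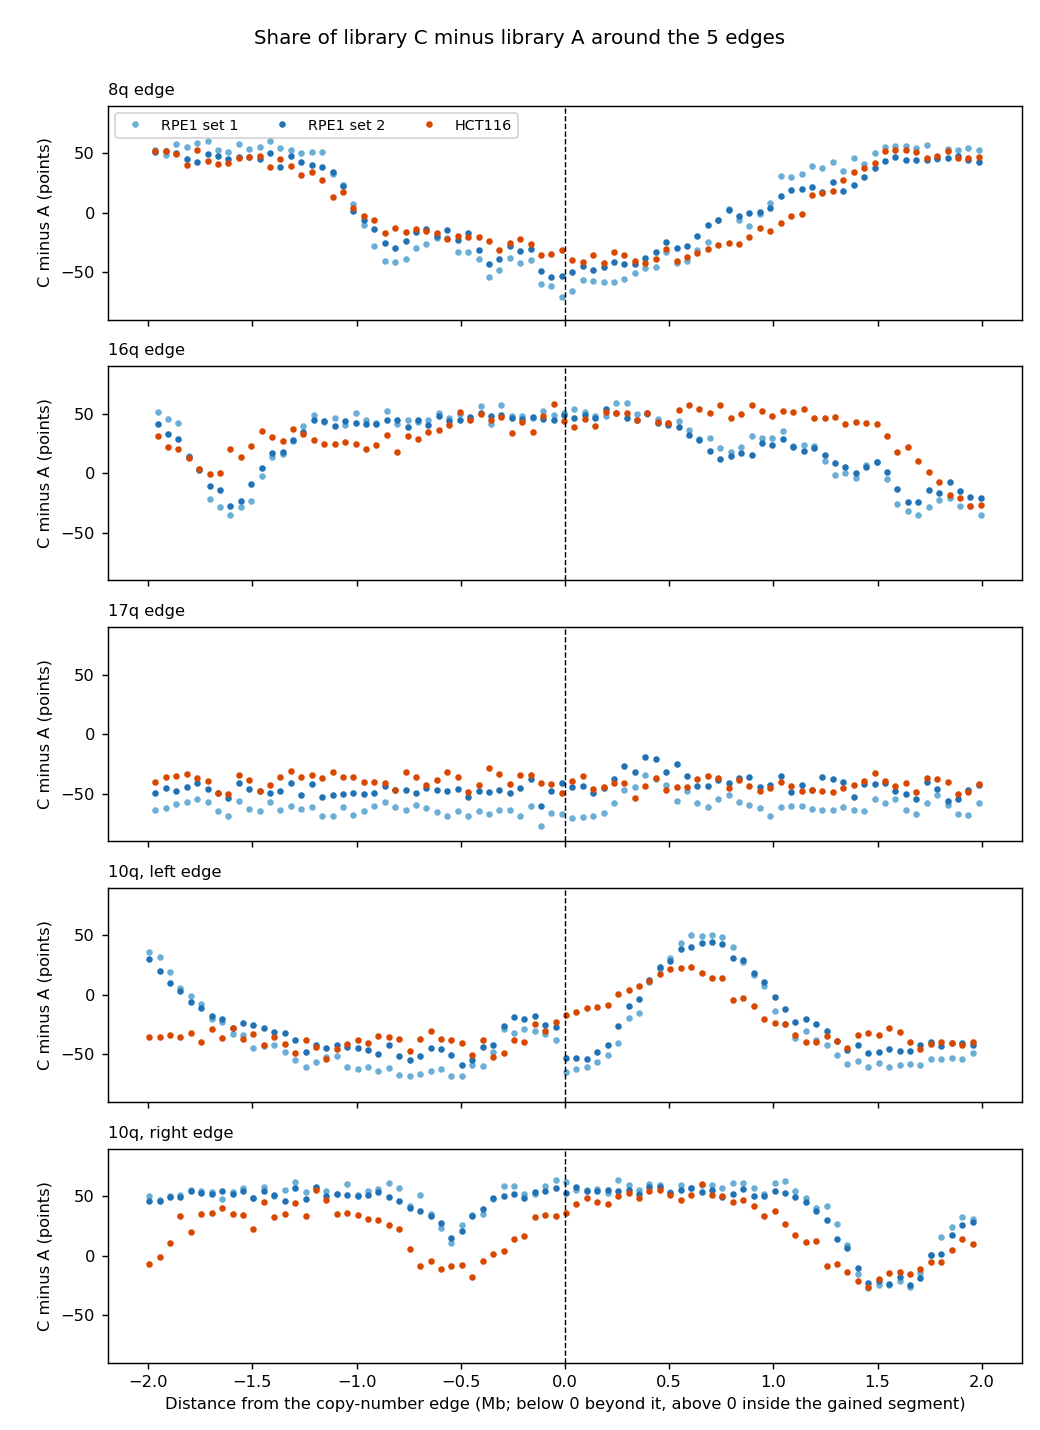
Share of library C minus share of library A (percentage points) in each 50 kb window against its distance from the edge in Mb, in 1 panel for each of the 5 edges, with RPE1 set 1 in light blue, RPE1 set 2 in dark blue and HCT116 in orange; values above 0 on the distance axis are inside the gained stretch. HCT116 stays high past 500 kb inside the 16q edge, where RPE1 declines, and is the lowest set over the 500 kb beyond the right 10q edge, at 10.1 points against 46.4.

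A copy step of one size in every library leaves the shares alone, so each library's own step was compared. The step is HCT116 reads inside over beyond, divided by the same ratio in an RPE1 set, over 5 Mb. The intervals are 95% and cover counting error only, and any PCR copies left in the counts are not independent molecules. At 8q the steps were 1.40 (1.36 to 1.45) and 1.48 (1.44 to 1.53) in library A, 1.37 and 1.36 in B, and 1.40 and 1.40 in C, against RPE1 set 1 and set 2. All 6 values at 8q over 5 Mb lay between 1.36 and 1.48. Over 1 Mb they were apart, with 1.63 and 1.78 in A, 1.09 and 1.28 in B, and 0.783 and 1.10 in C. At 16q library C stepped by 2.76 (2.68 to 2.83) and 2.31, A by 1.52 and 1.33, and B by 1.39 and 1.23. The flank beyond 16q holds the low HCT116 runs and the windows with raised RPE1, both led by C in RPE1. The 16q steps are therefore not those of a single copy step, and the part of these windows in them was not tested. At the right 10q edge C stepped by 3.51 and 3.48, B by 2.62 and 2.61, and A by 2.26 and 1.97. At the left 10q edge C stepped by 2.17 and 1.67, and A by 1.19 and 1.23. At 17q A stepped by 1.55 and 1.53, B by 1.34 and 1.26, and C by 1.51 and 1.41. Over 1 Mb at 17q A stepped by 1.87 and 1.8, B by 1.27 and 0.766, and C by 1.3 and 1.39. Library C thus had the largest step over 5 Mb at the 16q edge and at both 10q edges, whichever RPE1 set was used. Within 200 kb of the 16q edge the order was another, with 1.51 in C and 1.91 in B against RPE1 set 2. Over 1 Mb at the left 10q edge B had the largest step, with 2.87 and 1.83, and C had 0.289 and 1.3. At the right 10q edge C stepped most over 200 kb as well, by 3.3 and 3.12.

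The same was read as C minus A over 5 Mb inside, less its value over 5 Mb beyond. At the 16q edge this was 13.5 points in HCT116, against -7.45 and -5.49 in RPE1, so HCT116 was higher by 19.9 points. The windows of uneven depth beyond this edge lie within that flank. At the right 10q edge it was 11 points against -3.25 and -7.23, a difference of 16.2. At the left 10q edge it was 0.897 against -11.8 and -9.14, a difference of 11.4, and this turned to -12.7 when 1 Mb on either side was used. At the 17q edge it was -2.45 against 1.10 and 1.34, a difference of -3.66, and of -12.2 with 1 Mb on either side. At the 8q edge it was 1.25 against 1.38 and 2.89, a difference of -0.884, which lay within the SD of 1.1 between the RPE1 sets. With 1 Mb on either side the 8q difference was -15.5 and with 10 Mb 7.32, so neither its size nor its sign was settled. A single HCT116 set was sequenced, and whether the differences at the edges exceed its own spread was not tested.

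Over a whole stretch the libraries were divided much alike in both lines on 8q, 17q and 10q. On 8q library C held 39.3% of HCT116 reads, against 37.4% and 34.7% in RPE1, and library A 28.3% against 28.6% and 29.1%. On 17q library A held 46.1% against 47.8% and 46.5%, and on 10q 35.4% against 35.3% and 36.2%. The 16q stretch was farther from RPE1, with 41.1% in A against 49.5% and 46.9%, and 27.8% in C against 15.5% and 22.8%, where the RPE1 sets themselves lay apart. Across windows, the leading axes of HCT116 and the RPE1 mean correlated at r = 0.688 on 8q, 0.802 on 16q, 0.808 on 17q and 0.704 on 10q, and at 0.792 on autosomes outside the stretches. The RPE1 sets correlated with each other at 0.971 to 0.987 there. These are descriptions over neighbouring windows that share libraries and depth.

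Which single windows differed between the lines in their division of reads was tested on all 56697 windows kept, with the interaction of line and library position in edgeR's quasi-likelihood test. Read depth of a set at a window is a term of this model, so copy number does not enter the interaction. The test takes library position to mean the same in each table and takes the spread of the single HCT116 set from the RPE1 sets. At a Benjamini-Hochberg adjusted p of 0.05 it called 2.51% of all windows, 1.88% with HCT116 shifted towards C and 0.633% towards A. Direction is the sign of the difference between the lines in log2 of C over A. The low floor of library C in RPE1 set 1 enters this difference where A leads. Its part in the directions was not tested, and no lean towards C is read from them.

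In the 4 stretches together 48 of 3118 windows, or 1.54%, were called. On 8q 44 of 1571 were called, or 2.8%, with 37 towards C and 7 towards A, which is near the share over all windows. On 17q 4 of 718 were called, or 0.557%, all towards C. The limit on directions given above holds for both stretches. In the 16q stretch 0 of 213 and in the 10q stretch 0 of 616 were called by edgeR. In each, 14 windows had an unadjusted p below 0.05 in that test. Over all windows 6135 of 56697 did, a larger share than in either stretch. DESeq2's likelihood ratio test called 152 windows of 8q, 8 of 16q, 15 of 17q and 17 of 10q, against 3.50% of all windows. On 8q its share was 9.68%, so the standing of 8q relative to all windows depended on the tool. Windows at the edges were not called: of the 10 windows inside and 10 beyond each edge, 0 were called by edgeR, and 2 inside and 1 beyond the 17q edge had an unadjusted p below 0.05.

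The longest run of called windows on 8q towards C lay at chr8:105550001-105750000. It held 4 windows, with adjusted p from 0.0018 to 0.013 in edgeR's test. Library C held 57.4% of the 2434 HCT116 reads after scaling, against 4.89% of 1567 and 15.0% of 3314 in the RPE1 sets. Library A held 18.6% against 47.3% and 44.9%. The run thus went from least in C in RPE1 to led by C in HCT116, at a level of 1.41 in HCT116 and 0.786 and 0.801 in RPE1.

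The longest run on 8q towards A lay at chr8:126800001-126900000, with 2 windows and adjusted p of 0.022 and 0.035 in edgeR's test. Library A held 63.5% of HCT116 reads, against 21.0% and 21.6% in RPE1, where library B led with 50.0% and 51.6%. The level there was 1.10 in HCT116 and 0.908 and 0.916 in RPE1. On 17q no 2 of the 4 called windows were adjacent, but 2 lay in chr17:54000001-54500000 and 2 in chr17:67500001-68000000. The leftmost, at chr17:54200001-54250000, had an adjusted p of 0.021 in edgeR's test. Library C held 54.7% there in HCT116, against 7.65% and 18.3% in RPE1. In RPE1 this window was led by B, with 60.6% and 51.6%.

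Larger blocks showed how the lines differed along each stretch. In blocks of 500 kb, C minus A in HCT116 less the RPE1 mean had a median of 4.37 points over 157 blocks of 8q, 14.8 over 21 of 16q, 4.2 over 72 of 17q and -2.92 over 61 of 10q, beside 0.0471 over 5034 blocks of autosomes outside the stretches. The low floor of library C in RPE1 set 1 enters this RPE1 mean where A leads, as in much of 16q and 17q. When HCT116 windows were instead set against the HCT116 median of autosomal windows at a like place in RPE1, the median difference was 4.66 points on 8q, -2.58 on 16q, -5.11 on 17q and -2.32 on 10q. The rest of chromosomes 8, 16, 17 and 10 stood at 1.89, -2.52, -4.1 and -0.229 points. Outside the stretches, single autosomes ran from -4.13 on chromosome 22 to 4.86 on chromosome 13. These values are therefore not particular to the stretches. The sign on 16q and 17q thus depended on the reference, and no overall shift towards C is read from the block medians there. HCT116 lay above both RPE1 sets, and over 20 points above their mean, in 17.2% of blocks on 8q and 23.8% on 16q. The share was 4.17% on 17q and 11.5% on 10q, beside 10.3% outside. HCT116 lay below both sets, and over 20 points below their mean, in 12.7%, 4.76%, 6.94% and 26.2%, beside 13.9% outside. Blocks that moved towards C and blocks that moved towards A thus lay in the same stretch, on each of the 4.

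**Figure D4:**
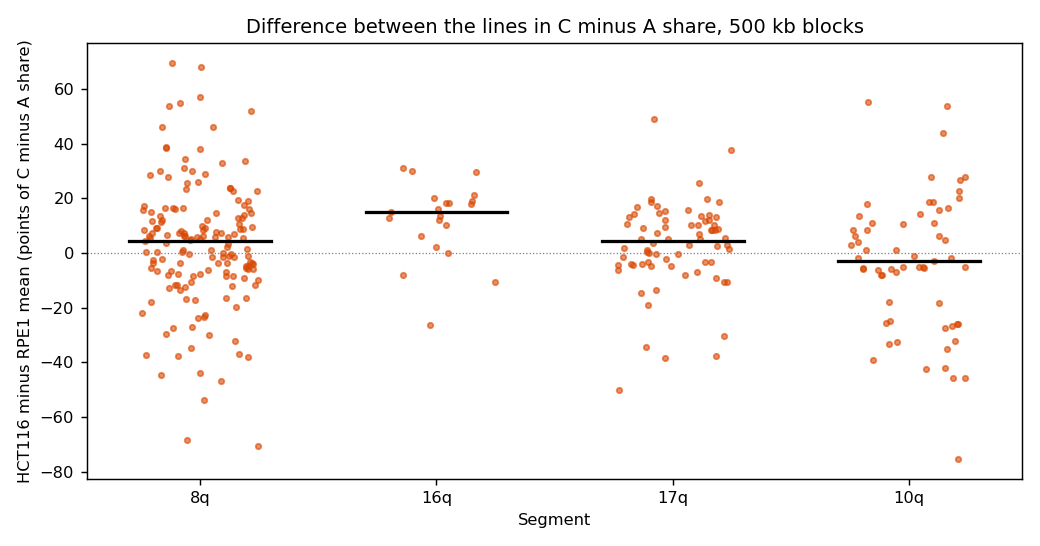
C minus A share in HCT116 less the mean of the 2 RPE1 sets (percentage points) for each 500 kb block of the 8q, 16q, 17q and 10q stretches; points are spread sideways only to be seen, and black bars are medians. Blocks lie on both sides of 0 in every stretch, from -70.6 to 69.4 points on 8q, and the medians are 4.37, 14.8, 4.2 and -2.92.

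The blocks at the ends of these ranges were picked for their values and are a description. On 8q, chr8:72500001-73000000 had 66.1% in C in HCT116 against 19.5% and 23.6% in RPE1, and 4 of its 10 windows were called. At the other end, chr8:127000001-127500000 had 16.6% in C against 67.1% and 59.4%. Both blocks had HCT116 levels of the gained stretch, 1.43 and 1.38. On 17q, chr17:67500001-68000000 had 58.6% in C against 16.3% and 24.1%, and chr17:71500001-72000000 had 17.3% against 58.5% and 52.9%.

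On 10q, where both lines stood at a raised level, the range was as wide. The block chr10:122000001-122500000 had 42.7% in C in HCT116 against 7.15% and 16.2% in RPE1, and chr10:113500001-114000000 had 18.8% against 68.6% and 57.2%. No window of either was called by edgeR, with smallest adjusted p of 0.14 and 0.30. On 16q the range was narrower, from -26.4 points at chr16:81800001-82300000 to 31.2 at chr16:80300001-80800000. In the latter, library C held 39.4% in HCT116 against 15.8% and 22%, and library B led in all sets with 40.6%, 52.8% and 47.9% in HCT116 and the RPE1 sets.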

How the data were processed

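The authors deposited raw read counts in 1 kb bins of hg19, with 3 unnamed columns a set. Bowtie2, SAMtools 1.2 and bedtools 2.25 are named in the submitters' processing notes. Settings of these tools are not given in the sources used here. Column totals ran from 6170299 to 22930078 reads. From these counts, 2290 bins above 10 times a set's median were removed, bins were summed to 50 kb, and windows were kept with at least 25 bins with reads, 50 reads over RPE1 and 30 in each set. Libraries were scaled to one total. The leading axis is the first component of centred log2(scaled reads + 1), cut into 50 classes for matched levels. Edges were placed by a binomial change point in Python 3.11.15. Line by position was tested with edgeR 4.0.16 (TMM, set and position as terms, 2 residual degrees of freedom, 1 spread for all windows) and DESeq2 1.42.0 in R 4.3.3, adjusted over all windows. Scripts were tested on simulated data with less spread than these data and no difference between the RPE1 sets. That checks the code and not the error rates here. Named runs are the longest called in each direction in each stretch, the leftmost if tied. The stretches, lists and tests were chosen with earlier results of these data known. Genes were not placed, because no hg19 annotation was used here.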

Additional observations from a re-analysis of the deposited data

Results flagged for a closer look

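At 4 edges the C minus A share, taken inside less beyond over 5 Mb, had one sign in HCT116 and the other in both RPE1 sets. HCT116 less the RPE1 mean was 19.9 points at the 16q edge, -3.66 at the 17q edge, 11.4 at the left 10q edge and 16.2 at the right 10q edge. With 1 HCT116 set, these differences were not tested. The 17q value is small beside its change with the width of the flanks, and the left 10q value changes sign with 1 Mb flanks. The 16q value includes the windows of uneven depth beyond that edge.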

How the results depend on the processing

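Of 140 alternative values, 103 stayed within the spread (for percents of called windows, within 1.5 times) and 37 moved. The spread was the SD of the values against the separate RPE1 sets, and at least 10 kb for edges. For levels and shares, leaving out an RPE1 set could therefore not count as moved. The edge spread on 8q was as wide as 1240 kb. The count of 103 is thus no measure of stability. The cause of the moves was not tested. Changes of sign were counted as moved, as for 10q left with 1 Mb flanks and 8q with 10 Mb flanks. Edges from single libraries were 68700001 for 8q (C), 81940001 (A) and 80460001 (B) for 16q, 45040001 for 17q (B), and 100320001 (A) and 98380001 (C) for the left 10q edge; bins of 50 kb put the right 10q edge at 131400001. With an RPE1 set left out, edges ran from 66270001 to 68020001 on 8q, 78850001 to 79390001 on 16q, 43380001 to 43440001 on 17q (43380001 on matched levels without set 1) and 99700001 to 100020001 on 10q left, and the right 10q edge stayed at 131380001. The ratio of HCT116 to RPE1 levels without matching was 1.47 on 8q, 1.41 on 16q, 1.34 on 17q and 0.961 on 10q; with summed raw reads it was 1.45 on 8q, 1.38 on 17q and 0.987 on 10q; with extreme bins kept it was 1.44 on 8q and 1.41 on 17q. With an RPE1 set left out it was 1.44 on 8q, 1.42 to 1.44 on 16q, 1.40 to 1.41 on 17q and 0.979 to 0.985 on 10q. The difference between the lines in C minus A, inside less beyond, was with 1 Mb flanks -15.5 on 8q, -12.2 on 17q, -12.7 on 10q left and 25 on 10q right, and with 10 Mb flanks 7.32 on 8q, -6.99 on 17q and 4.68 on 10q left. With an RPE1 set left out it ran from -1.64 to -0.126 on 8q, 19.0 to 20.9 on 16q, -3.78 to -3.54 on 17q, 10.0 to 12.7 on 10q left and 14.2 to 18.2 on 10q right.

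Windows called by DESeq2 were 9.68% on 8q, 3.76% on 16q, 2.09% on 17q and 2.76% on 10q. With 20 kb windows, which hold fewer reads each, edgeR called 0.449% of all windows, 0.636% on 8q and 0% on 17q; with 100 kb windows it called 0% on 17q, with DESeq2's size factors 0.279% and without the filter 0.278%. Leaving out an RPE1 set leaves the edgeR model no residual degrees of freedom, so that alternative gave no value. No paired analysis was possible because HCT116 has a single set and the groups share fewer than 2 replicate numbers. HCT116 was the shallowest set, with a median of 445 reads a window, and the few reads beyond the right 10q edge limit shares there.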
